A study of Mus musculus with 12 samples.

Results

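The denervation response of a gene is its log2 level in denervated muscle minus that in control muscle, and the quantity described here is the response of Smad4 knockout (KO) muscle minus the response of wild-type (WT) muscle, the interaction of genotype and denervation. A value above 0 means that a gene rose more, or fell less, after denervation in KO than in WT muscle. All 12 arrays of the series enter it, and it was computed for 15234 genes, out of 27597 on the array, with a probe well above background on all 3 arrays of at least 1 group. Transcripts and probes that matched no gene symbol keep the name in the files and count as genes here. Whole gastrocnemius muscle came from adult male CD1 mice, either WT or KO for Smad4, and was either a control muscle or one denervated for 14 days, which makes 4 groups of 3 arrays. One-colour Agilent arrays read Cy3-labelled RNA, and each level is a log2 intensity relative to the array's own 75th percentile, so that 0 is that percentile. The labels name neither the Cre driver, the cells that lost Smad4 nor the deleted part of the gene, and they do not say whether control and denervated muscles came from the same animals, so p-values measure the spread between these samples, which may be technical. Whole muscle holds several cell types, and fewer cells of a type cannot be told apart from less RNA per cell.

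Smad4 is the shared partner of the receptor-activated Smad proteins: it joins those that BMP and GDF ligands activate and those that TGF-beta, activin and myostatin activate, and the complexes regulate transcription in the nucleus. In adult skeletal muscle, BMP signalling favours fibre mass while myostatin and activin restrain it, and both branches pass through Smad4. Cutting the nerve silences the fibre, which then atrophies, spreads its acetylcholine receptors beyond the synapse and turns on myogenic factors and embryonic muscle genes. A difference between the responses of WT and KO muscle marks the genes whose reaction to nerve loss depended on the genotype.

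The Smad4 probe read 3.74, 3.59 and 4.02 in WT control, 3.18, 3.49 and 3.28 in WT denervated, 2.42, 2.38 and 2.19 in KO control and 1.77, 2.05 and 1.89 in KO denervated muscle. Every KO array lay below every WT array, by -1.46 in control and -1.42 in denervated muscle, and Smad4 was the only gene called between KO and WT control muscle (limma adjusted p = 0.0186; 1 of 15234 genes, 0.00656%). The KO signal stayed well above background on all 6 KO arrays, and whether the probe lies in the deleted part is not given in the sources used here. The fast-muscle genes Acta1, Ckm, Myh4, Actn3 and Tnnt3 were well above background on all 12 arrays, between 6.19 and 9.09. The 75th percentile lay between 219 and 364 intensity units, and 50.2% to 56.4% of probes were well above background. The arrays lay on 4 slides and no slide held all 4 groups, so that slide and group overlap in part, as given below beside the results.

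Few genes were called for a difference of responses between the genotypes, and genes without a call were not shown to respond alike. Among called genes well above background on all 12 arrays the largest differences were those of Npr3, Rgcc and Vgll2 on the lower and Cdkn1c, Adora2b and Hjurp on the higher side. The difference was called for 28 of 15234 genes at a limma adjusted p under 0.05 (0.184%), of which 15 were higher in KO (0.0985%) and 13 lower (0.0853%). Without adjustment, 1437 genes had p under 0.05 (9.43%), 696 of them with a higher value (4.57% of all genes) and 741 with a lower value (4.86%). Among the 28, the WT response was lost in 3 genes (called in WT, not in KO), blunted in 5 (smaller in KO), reversed in 6 (called in both with opposite signs), enhanced in 5 (larger in KO) and gained in 9 (called in KO, not in WT). Lost and blunted genes all lay on the lower side, gained genes all on the higher side, while 4 reversed and 1 enhanced gene were lower and 2 reversed and 4 enhanced genes were higher. Each of the 28 was also called between KO and WT in denervated muscle, where 333 genes were called in all (2.19%), and none in control muscle. These comparisons share arrays with the interaction. The median absolute KO-WT difference of the 28 was 2.37 in denervated and 0.21 in control muscle. Since the 28 were chosen on these arrays, these medians and the kept signs given next are no separate evidence. Each of the 28 kept its sign under all 24 or 25 alternative settings in which it was tested, but the number of calls moved: it was 5 without WT control 2 or without KO control 2, 6 without WT control 1, 10 without KO denervated 2, 11 without KO control 1 and 12 without WT denervated 2. It was 13 without WT control 3, 14 without KO denervated 3, 17 without WT denervated 3 or without KO control 3, 23 without WT denervated 1 and 51 without KO denervated 1. With the slide as a fixed block 4 genes were called, and with normexp background correction limma called 0 (289 at an unadjusted p under 0.05). With same-numbered control and denervated arrays of a genotype taken as pairs, 9 genes were called, 5 of them among the 28.

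**Figure D1:**
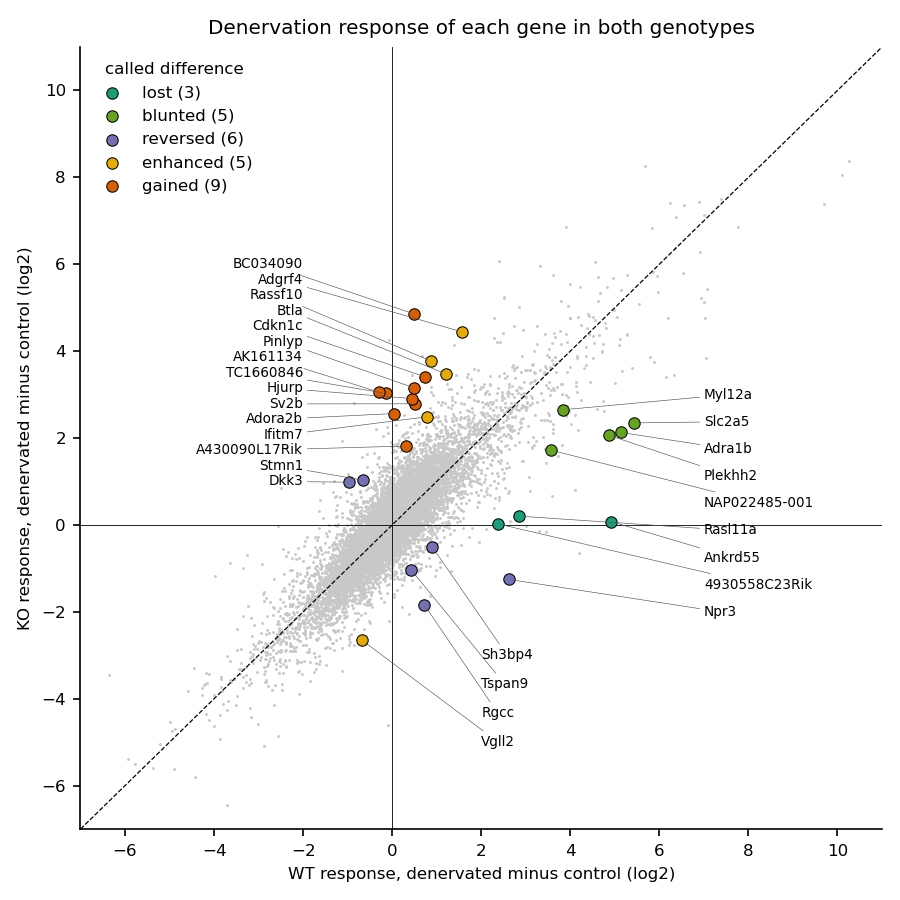
Denervation response of 15234 genes in WT muscle (x axis) and KO muscle (y axis), both as log2 denervated minus control over 3 arrays per group; the dashed line marks equal responses. Coloured points are the 28 called genes by class: lost, blunted and most reversed genes lie below the line, gained genes above it.

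The response called in WT muscle covered 5979 genes (39.2%) and that in KO muscle 7146 (46.9%). In WT muscle 18.7% of all genes rose and 20.6% fell, and in KO muscle 23.7% rose and 23.2% fell. 4876 genes were called in both, 4863 of them with the same sign, which is 81.3% of the WT calls. 1103 genes were called in WT alone and 2270 in KO alone, yet the difference itself was called for 3 and 9 of these, so a call in 1 genotype was rarely a called difference. 13 genes were called in both with opposite signs, and the difference was called for 6 of them. Across genes, which are not independent, WT and KO responses had Pearson r = 0.88 and Spearman rho = 0.854. The KO response was the larger in 3071 of the 4863 shared genes (63.1%), 1688 of the 2553 that fell and 1383 of the 2310 that rose. The median absolute response over all genes was 0.46 in WT and 0.55 in KO, a ratio of 1.19 that ranged from 1.08 to 1.26 over the alternatives. The median difference of all genes was 0.014, its median standard error 0.29. Of the 1437 genes with an unadjusted p under 0.05, 522 were of the gained kind, 379 enhanced, 231 lost, 135 blunted, 13 reversed and 157 were called in neither genotype.

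Npr3, the clearance receptor of natriuretic peptides, rose after denervation in WT muscle and fell in KO muscle. Its level was -0.38, -0.50 and -0.51 in WT control, 2.44, 2.58 and 1.44 in WT denervated, -0.52, -0.35 and -0.58 in KO control and -1.85, -1.43 and -1.93 in KO denervated muscle. Both control groups overlapped, the WT denervated arrays lay above them and the KO denervated arrays below them. The response was 2.62 ± 0.26 in WT and -1.25 ± 0.26 in KO muscle, a difference of -3.87 ± 0.37 (SE, 3 arrays per group; limma adjusted p = 0.00299), and denervated KO muscle was 14.8-fold below denervated WT muscle. All 3 Npr3 probes went the same way, from -4.24 to -3.34, and the call held with each of the 12 arrays left out in turn. The files place its probe at chr15:11784907-11784966 (mm8, minus strand). No annotation of that build was used here, so exon or UTR is not stated for any probe.

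Rgcc, a regulator of cell-cycle kinase activity first described as a complement-response gene, read 4.03, 3.95 and 4.54 in WT control, 4.77, 5.17 and 4.73 in WT denervated, 4.23, 3.87 and 4.11 in KO control and 2.54, 2.21 and 1.96 in KO denervated muscle. WT denervated arrays were the highest and KO denervated arrays the lowest, with no overlap with either control group. The response was 0.72 ± 0.21 in WT and -1.83 ± 0.21 in KO muscle, a difference of -2.55 ± 0.30 (limma adjusted p = 0.0104), called also with each array left out. Tspan9, a tetraspanin of the cell surface, read 2.81 to 3.14 in WT control, 3.28 to 3.49 in WT denervated, 3.07 to 3.38 in KO control and 2.08 to 2.43 in KO denervated muscle. Its small WT rise of 0.42 (limma adjusted p = 0.0451) stood against a KO response of -1.03, its WT denervated arrays overlapped the KO control arrays, and the difference was -1.46 ± 0.21 (adjusted p = 0.0304). Sh3bp4, an SH3-domain protein of endocytosis and amino acid signalling to mTORC1, rose by 0.90 in WT, fell by 0.51 in KO muscle and differed by -1.41 ± 0.20 (adjusted p = 0.0296). In these 4 genes the KO denervated arrays lay below the KO control arrays throughout. Unlike those of Npr3 and Rgcc, the calls of Tspan9 and Sh3bp4 were lost in most fits with 1 array left out. Without WT control 2, for example, both had a limma adjusted p of 0.0929.

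Stmn1 and Dkk3 were reversed the other way. Stmn1, which destabilises microtubules in growing and dividing cells, read 1.30, 1.23 and 1.66 in WT control, 0.84, 0.63 and 0.72 in WT denervated, 1.43, 1.15 and 1.48 in KO control and 2.00, 2.68 and 2.46 in KO denervated muscle. The WT denervated arrays were the lowest and the KO denervated arrays the highest, without overlap. The response was -0.66 ± 0.19 in WT and 1.03 ± 0.19 in KO muscle, a difference of 1.70 ± 0.27 (limma adjusted p = 0.0401), and its 2 probes gave 1.70 and 1.78. Dkk3, a secreted glycoprotein of the Dickkopf family, read -1.77, -1.82 and -1.67 in WT control, -2.65, -2.94 and -2.56 in WT denervated, -2.10, -2.28 and -1.45 in KO control and -1.01, -0.93 and -0.93 in KO denervated muscle. The response was -0.96 ± 0.20 in WT and 0.98 ± 0.20 in KO muscle, a difference of 1.95 ± 0.28 (adjusted p = 0.0296). KO control 3, at -1.45, was the highest control array of Dkk3, and the call was lost in 8 of 12 fits with 1 array left out, as that of Stmn1 was in 11.

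The responses lost or blunted in KO muscle were all rises. Myl12a, a regulatory light chain of non-muscle myosin, read 0.048, 0.19 and 0.17 in WT control, 3.86, 4.15 and 3.91 in WT denervated, 0.14, 0.23 and 0.18 in KO control and 2.96, 2.74 and 2.80 in KO denervated muscle. Control arrays of both genotypes lay together near 0, and every KO denervated array lay between them and the WT denervated arrays. The response was 3.83 ± 0.13 in WT and 2.65 ± 0.13 in KO muscle, a difference of -1.18 ± 0.18 (limma adjusted p = 0.0317), the smallest among the 28. That call was lost in most fits with 1 array left out, such as the fit without WT control 2 (limma adjusted p = 0.0929). Adra1b, the alpha-1B adrenergic receptor, read -3.89, -3.81 and -3.83 in WT control, 1.33, 0.98 and 1.56 in WT denervated, -2.89, -3.78 and -3.62 in KO control and -1.59, -1.41 and -0.91 in KO denervated muscle, with 2 of 3 KO control arrays well above background. The response was 5.13 ± 0.25 in WT and 2.13 ± 0.25 in KO muscle, a difference of -3.00 ± 0.35 (adjusted p = 0.0104), called with each array left out. Its denervated groups were 6.03-fold apart.

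Ankrd55, an ankyrin-repeat protein, had the largest difference of the 28 and was read only in WT denervated muscle. It stood at -1.25, -0.86 and -1.71 there and was not well above background on any of the other 9 arrays, so the fitted difference of -4.84 ± 0.56 (limma adjusted p = 0.0104) rests on levels that are bounds. Against the lowest signal well above background, WT denervated muscle was at least 9.71-fold above KO denervated and at least 7.8-fold above WT control muscle. Such bounds use each array's lowest probe signal well above background, or the probe's own signal where that was higher. Slc2a5, the fructose transporter GLUT5, was not well above background in either control group and rose at least 10.6-fold in WT and at least 2.08-fold in KO muscle, to -1.43 to -0.32 and -3.23 to -2.84. Plekhh2, a protein with pleckstrin-homology and FERM domains, rose at least 8.28-fold in WT, to -1.64 to -0.94, and lay at -4.23 to -3.17 in KO denervated muscle, with 2 of 3 arrays well above background. The denervated arrays of WT and KO did not overlap in any of these genes.

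Rasl11a, a small Ras-like GTPase, read -4.04, -4.11 and -3.27 in WT control, -0.52, -1.37 and -0.95 in WT denervated, -3.30, -3.24 and -3.86 in KO control and -3.02, -3.58 and -3.20 in KO denervated muscle. Only the WT denervated arrays stood apart, with a WT response of 2.86 and a KO response of 0.20 (limma adjusted p = 0.589), and the difference was -2.66 ± 0.41 (adjusted p = 0.0317). The transcript 4930558C23Rik, of no named product, went from not well above background in WT control to -2.10 to -1.26 in WT denervated muscle, a rise of at least 5.14-fold. In KO denervated muscle it lay at -3.85 to -3.52, and the difference was -2.36 ± 0.33 (adjusted p = 0.0289). A probe named only NAP022485-001 in the files rose by 3.57 in WT and 1.72 in KO muscle (difference -1.85 ± 0.31, adjusted p = 0.0487). Slc2a5, Adra1b and NAP022485-001 were also higher on all KO control than on all WT control arrays, by 0.95, 0.41 and 0.58, none of them called.

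Vgll2, a muscle-enriched cofactor of TEAD transcription factors, fell further in KO than in WT muscle. It read 4.84, 4.78 and 4.38 in WT control, 4.35, 3.99 and 3.65 in WT denervated, 4.76, 4.83 and 4.61 in KO control and 2.55, 1.82 and 1.86 in KO denervated muscle. The response was -0.67 ± 0.24 in WT and -2.66 ± 0.24 in KO muscle, a difference of -1.99 ± 0.33 (limma adjusted p = 0.0487), and denervated KO muscle was 3.77-fold below denervated WT muscle. The call lay close to the threshold and held in 1 of 12 fits with 1 array left out.

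**Figure D2:**
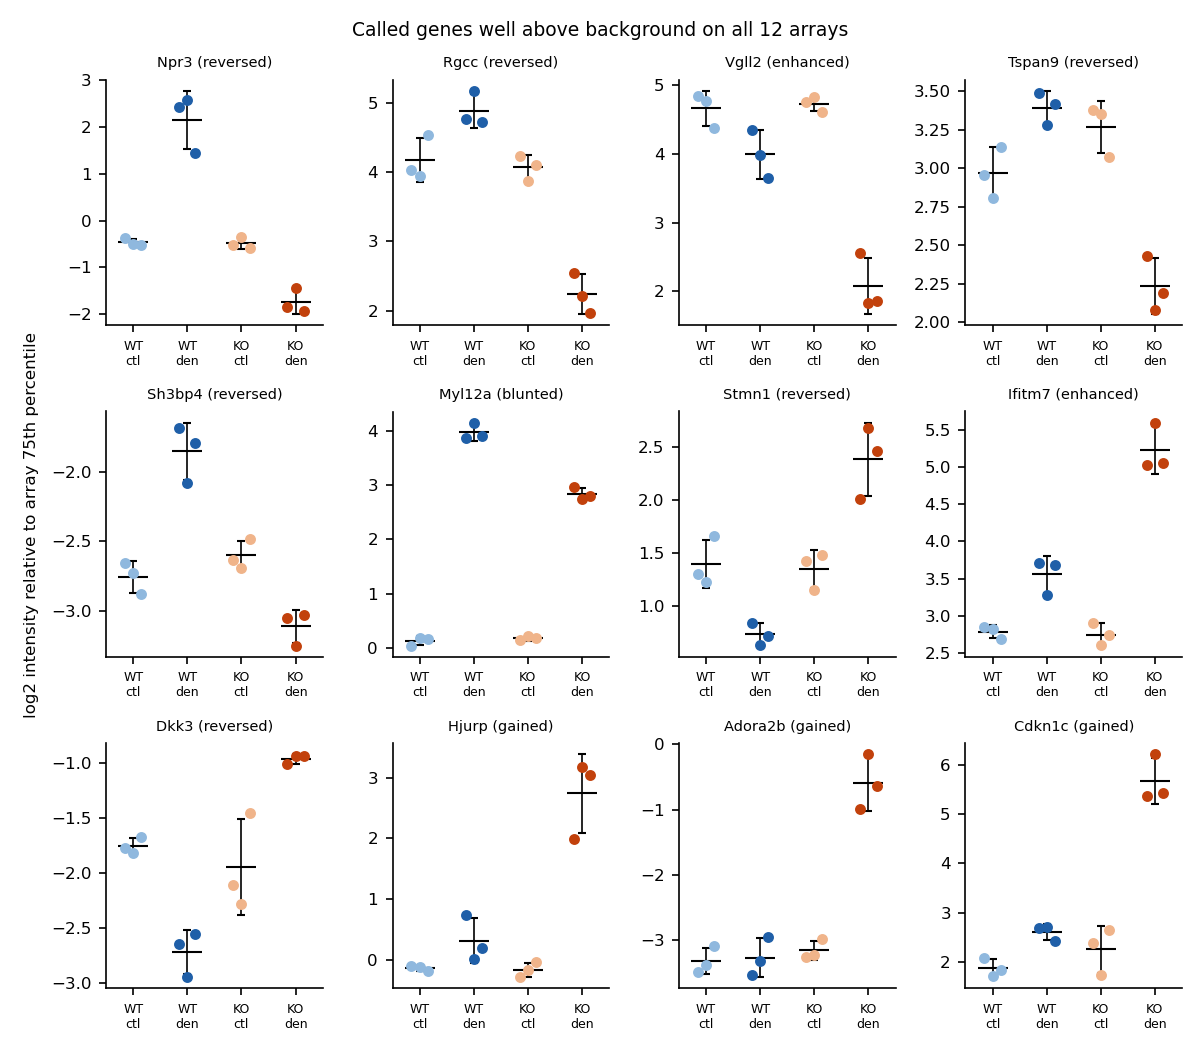
Log2 intensity relative to the array's 75th percentile (y axis) of the 12 called genes well above background on all 12 arrays, for the 4 groups (ctl, control; den, denervated; 3 arrays each). Points are arrays, bars the mean and SD, and y axes differ between panels; in each panel the KO denervated arrays do not overlap the WT denervated arrays.

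The responses gained or enhanced in KO muscle on the higher side were all rises as well. Cdkn1c, the cyclin-dependent kinase inhibitor p57, read 2.09, 1.72 and 1.85 in WT control, 2.69, 2.72 and 2.43 in WT denervated, 2.39, 1.73 and 2.66 in KO control and 5.37, 6.21 and 5.43 in KO denervated muscle. The KO denervated arrays were the 3 highest and did not overlap the other groups. The response was 0.73 ± 0.27 in WT and 3.41 ± 0.27 in KO muscle, a difference of 2.68 ± 0.38 (limma adjusted p = 0.0296). Its WT response missed the threshold narrowly (adjusted p = 0.0501), so gained and enhanced are close here. Denervated KO muscle was 8.33-fold above denervated WT muscle. Adora2b, the A2B adenosine receptor, read -3.49, -3.38 and -3.10 in WT control, -3.54, -3.32 and -2.95 in WT denervated, -3.26, -3.23 and -2.99 in KO control and -0.9952, -0.15 and -0.64 in KO denervated muscle. The WT groups overlapped and the KO denervated arrays stood alone. The response was 0.050 ± 0.22 in WT and 2.56 ± 0.22 in KO muscle, a difference of 2.51 ± 0.32 (adjusted p = 0.0171).

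Hjurp, the chaperone that deposits the centromeric histone CENP-A, read -0.11, -0.13 and -0.19 in WT control, 0.73, 0.012 and 0.19 in WT denervated, -0.28, -0.18 and -0.044 in KO control and 1.99, 3.18 and 3.04 in KO denervated muscle. The response was 0.46 ± 0.28 in WT and 2.91 ± 0.28 in KO muscle, a difference of 2.45 ± 0.40 (limma adjusted p = 0.0445), and its 4 probes ranged from 0.91 to 2.56. Among the 17 measured genes of a cell-cycle list none was called, with 1 higher and 1 lower at an unadjusted p under 0.05 beside 4.57% and 4.86% of all genes, and a median difference of 0.43 (0.034 to 0.67 over the alternatives, 0.034 with normexp). Ifitm7, of the interferon-induced transmembrane family, read 2.68 to 2.84 in WT and 2.60 to 2.90 in KO control muscle, and 3.27 to 3.71 in WT and 5.03 to 5.60 in KO denervated muscle, a difference of 1.72 ± 0.26 (adjusted p = 0.0317). The family has near-identical members, and whether its probe reads Ifitm7 alone was not tested. Ifitm3, of the same family, had 1.55 ± 0.29 without a call (adjusted p = 0.0785).

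Of the 15 higher genes, 9 were not well above background on every array, and for 6 of these WT denervated muscle gave only a bound. Denervated KO muscle was at least 5.13-fold above denervated WT muscle for Rassf10, a Ras-association domain protein, which lay at -2.40 to -1.90. For Btla, an inhibitory receptor of lymphocytes, the bound was 3.5-fold and the KO denervated level -2.79 to -2.48. Of 4 measured genes of a T and B cell list 0 were called by limma and 0 had an unadjusted p under 0.05, beside 0.184% and 9.43% of all genes. Their summed linear level was 0.211 to 0.405 in WT and 0.236 to 0.251 in KO denervated muscle, in units of the array's 75th percentile. Pinlyp, with phospholipase-inhibitor and Ly6 domains, was at least 2.86-fold and Sv2b, a synaptic vesicle protein, at least 2.66-fold higher in KO denervated muscle. The responses of Btla and Rassf10 counted as enhanced because their fitted WT rises of 1.21 and 0.87 were called, on signals not well above background. For the unnamed transcripts TC1660846 and AK161134 the bounds were 2.63-fold and 2.76-fold. TC1660846 had the smallest adjusted p of the 28 (0.000332), with a fitted difference of 3.15 ± 0.23, and it kept its call with the slide as a fixed block (limma adjusted p = 0.00993). It was well above background on the KO denervated arrays alone, so its standard error and p-values rest on levels that are bounds.

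BC034090 was well above background on all 3 KO denervated arrays, at -0.72, -0.051 and -0.96, on 1 WT denervated array and on no control array. Its fitted difference was 4.37 ± 0.70 (limma adjusted p = 0.0401). Adgrf4, an adhesion G protein-coupled receptor, rose at least 2.59-fold in WT and at least 9.93-fold in KO muscle, to -3.44 to -2.38 and -1.23 to -0.41. A430090L17Rik read -3.21 to -2.89 in WT control, -2.77 to -2.68 in WT denervated, -3.82 to -3.35 in KO control and -2.02 to -1.68 in KO denervated muscle. In Adgrf4 and A430090L17Rik the KO control arrays lay below all WT control arrays, by -0.72 and -0.59, and this control difference enters their values of 2.86 ± 0.43 and 1.50 ± 0.23.

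**Figure D3:**
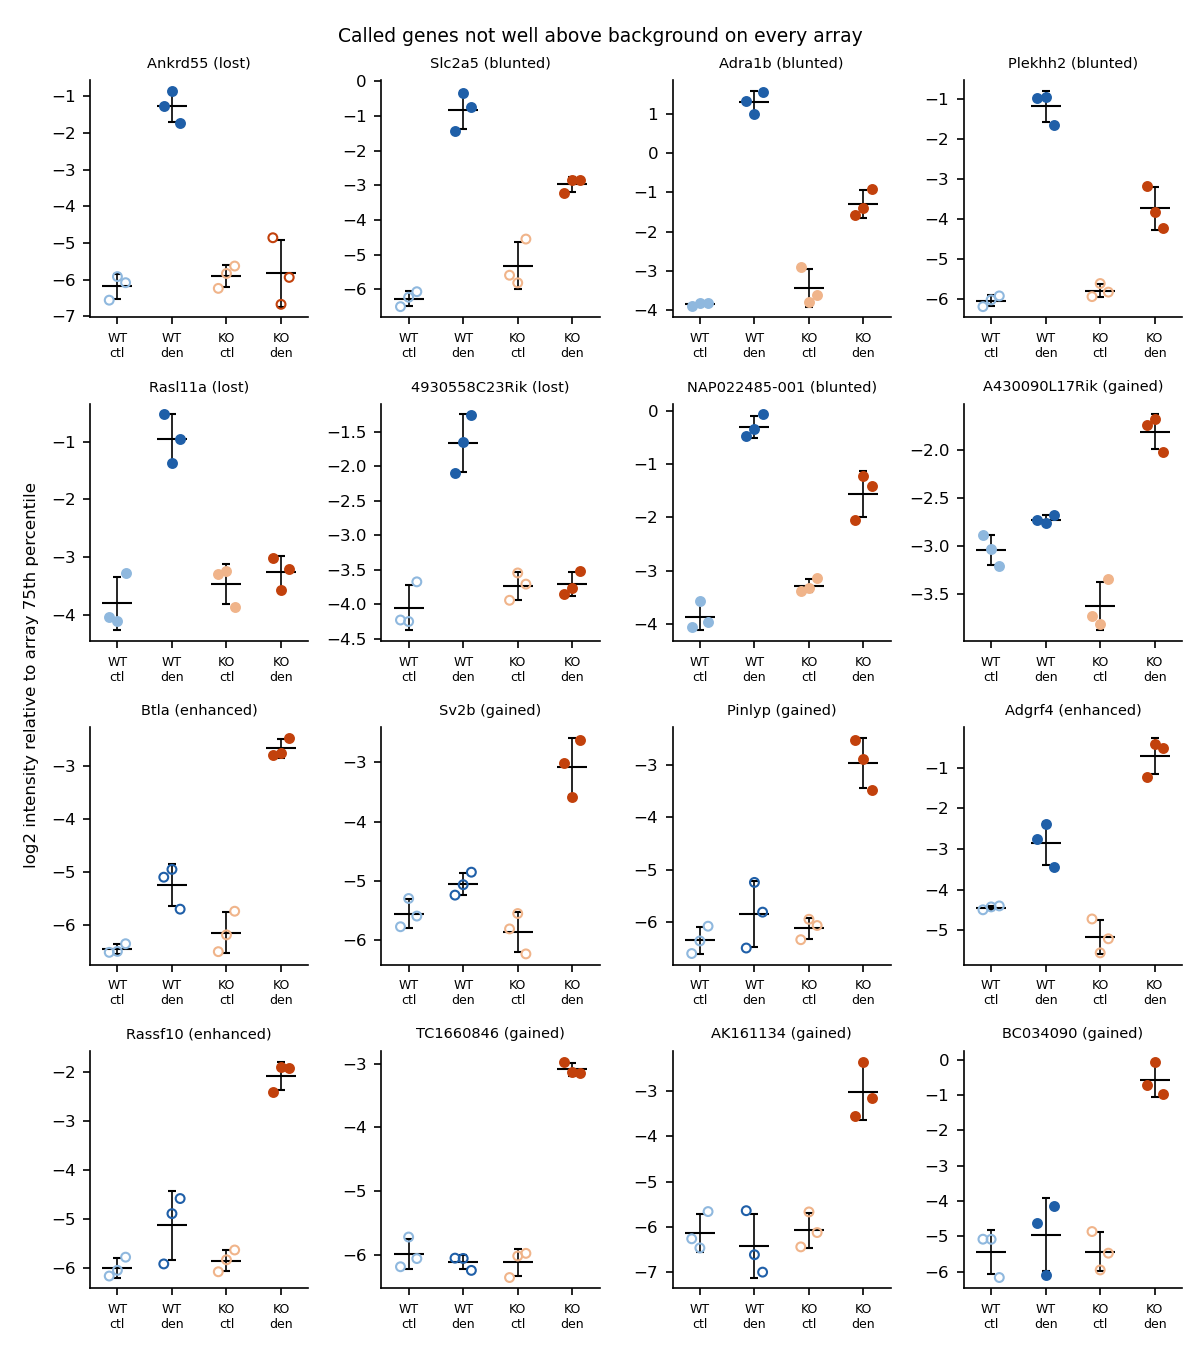
Log2 intensity relative to the array's 75th percentile (y axis) of the 16 called genes not well above background on every array, for the 4 groups (ctl, control; den, denervated; 3 arrays each). Points are arrays, open where no array of the group was well above background, bars show the mean and SD, and y axes differ; filled KO denervated points stand alone in Btla, Sv2b, Pinlyp, Rassf10, TC1660846 and AK161134, filled WT denervated points in Ankrd55.

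Promoters are shown for the 2 largest differences each way among the 12 genes measured on all arrays with an entry in the RefSeq promoter table, since they are among the largest differences measured in every group. Cdkn1c, with a larger difference, is not in that table. Each is the 250 bases before the RefSeq transcript start (GRCm38.p6), and capitals mark matches on either strand to GTCTG, the core of the Smad-binding element, to GGCGCC, a GC-rich motif bound by BMP-activated Smads, and to CAGCTG, an E-box of myogenic factors. The Hjurp match lies on the other strand, so its capitals are the reverse complement of the motif, and no matches overlap.
Npr3, chr15:11907372-11907621 (minus strand): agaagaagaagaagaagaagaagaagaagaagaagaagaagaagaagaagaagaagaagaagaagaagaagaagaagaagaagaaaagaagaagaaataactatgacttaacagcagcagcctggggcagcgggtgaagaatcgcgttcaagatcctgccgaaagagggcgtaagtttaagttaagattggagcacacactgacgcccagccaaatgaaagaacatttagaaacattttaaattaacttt
Rgcc, chr14:79301636-79301885 (minus strand): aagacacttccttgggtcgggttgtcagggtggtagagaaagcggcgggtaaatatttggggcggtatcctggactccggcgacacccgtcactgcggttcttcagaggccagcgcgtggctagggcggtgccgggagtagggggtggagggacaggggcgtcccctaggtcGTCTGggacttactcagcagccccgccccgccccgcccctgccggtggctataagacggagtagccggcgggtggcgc
Adora2b, chr11:62248734-62248983 (plus strand): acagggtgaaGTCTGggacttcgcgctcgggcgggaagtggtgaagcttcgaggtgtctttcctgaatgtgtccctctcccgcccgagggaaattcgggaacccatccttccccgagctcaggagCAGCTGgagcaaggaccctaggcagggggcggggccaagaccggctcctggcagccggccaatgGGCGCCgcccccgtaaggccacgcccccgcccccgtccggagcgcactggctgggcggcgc
Hjurp, chr1:88277580-88277829 (minus strand): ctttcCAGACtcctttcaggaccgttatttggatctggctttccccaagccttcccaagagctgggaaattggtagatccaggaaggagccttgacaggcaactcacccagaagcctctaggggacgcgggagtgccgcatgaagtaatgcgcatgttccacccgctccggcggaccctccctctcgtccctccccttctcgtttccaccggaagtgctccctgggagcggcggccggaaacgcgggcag

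The Npr3 promoter held none of the 3 motifs and opens with a run of aga repeats, Rgcc and Hjurp held 1 GTCTG match each, and Adora2b held 1 match of each motif. Over the 10333 tested genes with a promoter in the table, 40.6% held GTCTG, 16.3% GGCGCC and 11.8% CAGCTG in this window. Of the 20 called genes with a promoter, GTCTG was in 6 of 9 higher and 5 of 11 lower genes, GGCGCC in 3 of 9 and 0 of 11, and CAGCTG in 3 of 9 and 2 of 11. A match is a description of letters and shows no binding.

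None of 18 genes of BMP signalling, the synapse and atrophy was called for the difference, beside 0.184% of all genes, so the lack of a call does not set them apart. The ligands Gdf5 and Gdf6 rose by 5.96 and 6.34 in WT and by 5.74 and 6.38 in KO muscle, with differences of -0.22 ± 0.48 and 0.037 ± 0.66 (limma adjusted p = 0.928 and 0.99), both of which changed sign in some alternatives. Gdf6 was well above background on none of the 6 control arrays, so its responses rest on levels that are bounds. Noggin (Nog), a secreted BMP antagonist, was called in neither genotype (0.073 and -0.24). Id2, a helix-loop-helix inhibitor and a classic BMP target, read -0.31, -0.30 and -0.56 in WT control, 2.99, 3.70 and 3.03 in WT denervated, -0.17, -1.18 and -0.89 in KO control and 1.59, 1.01 and 0.43 in KO denervated muscle. It rose in both genotypes, with the KO denervated arrays below all WT denervated arrays, and its difference of -1.88 ± 0.46 missed the threshold (limma adjusted p = 0.167; unadjusted p = 0.00169). For Id1 the responses were 0.75 in WT and -0.49 in KO muscle, neither called, and KO control 1, at 2.56, was the highest control array; the difference was -1.24 ± 0.56 (adjusted p = 0.523). Myostatin (Mstn), the ligand that restrains muscle growth, fell by 2.25 in WT and by 2.91 in KO muscle, without a called difference (-0.66, adjusted p = 0.445).

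At the synapse, the acetylcholine receptor subunit Chrna1 rose by 4.51 in WT and 4.36 in KO muscle (difference -0.15 ± 0.18, above 0 under quantile normalization). The embryonic subunit Chrng was well above background on 1 of 6 control arrays, and its difference of -2.05 ± 0.98 (limma adjusted p = 0.553) rests on control levels that are mostly bounds. Its other probe gave -0.084. Musk, the kinase that organises the synapse, read 0.0011 to 0.40 in WT and -1.44 to -0.84 in KO denervated muscle without overlap, and differed by -1.30 ± 0.42 (adjusted p = 0.322; unadjusted p = 0.0095). Ncam1, the neural cell adhesion molecule, likewise stood at 4.34 to 4.80 and 2.59 to 3.82 (-1.37 ± 0.62, adjusted p = 0.523). The myogenic factor Myog, the deacetylase Hdac4, the stress gene Gadd45a and embryonic myosin Myh3 rose in both genotypes and differed by -0.65, -0.16, 0.29 and -0.26. The atrophy ligases Fbxo32 and Trim63 were called in neither genotype, with differences of -0.23 ± 0.72 and 0.034 ± 0.33 that changed sign between alternatives, and Fbxo30, the ligase that Smad4-dependent BMP signalling restrains, rose by 0.84 and 1.15 (difference 0.31 ± 0.33). A missed threshold does not show that these responses were equal: the standard errors here run from 0.18 for Chrna1 to 0.98 for Chrng.

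**Figure D4:**
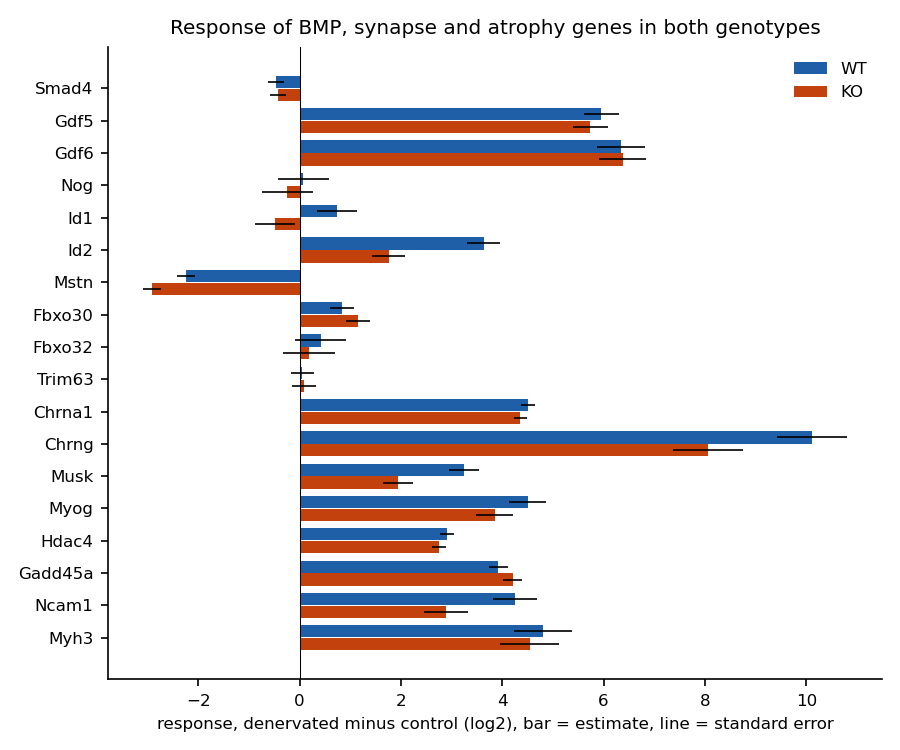
Denervation response (x axis, log2 denervated minus control) of 18 genes of BMP signalling, the synapse and atrophy in WT and KO muscle, 3 arrays per group. Bars start at 0 and lines show the standard error of the fit; the WT and KO bars of Id2 reach 3.63 and 1.76, those of Musk 3.24 and 1.94 and those of Chrna1 4.51 and 4.36, and no difference was called.

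The 42 gene lists held 887 distinct measured genes, of which 2 were called for the difference, beside 28 of 15234 genes (0.184%). The 2 were Vgll2 of the myogenic regulators and Cdkn1c of the growth arrest genes. The lists are therefore described by counts at an unadjusted p under 0.05 and by medians, beside 4.86% lower, 4.57% higher and a median of 0.014 over all genes. Lists and members were chosen with earlier results of these data known, so their counts and medians, here and below, are no separate evidence. Of 14 measured BMP targets, 6 were lower and 0 higher, with a median difference of -0.43 (-0.63 to -0.21 over the alternatives, -0.21 with normexp). By sign alone 8 of the 14 values lay below 0 and 6 above, so the list did not move as 1 set. The 6 lower at that level were Id1, Id2, Id3, Smad6, Atoh8 and Hamp2, and 6 BMP targets were called lower in denervated KO than WT muscle. There 1.23% of genes were called lower and 0.958% higher. Atoh8, a helix-loop-helix factor, read -2.07 to -1.31 in WT control, 0.17 to 0.71 in WT denervated, -2.00 to -1.84 in KO control and -2.90 to -1.46 in KO denervated muscle. Its WT rise of 2.11 had no called counterpart in KO (-0.088), and the difference was -2.20 ± 0.47 (limma adjusted p = 0.128). Hamp2, a hepcidin gene, was well above background on all WT denervated, 1 KO denervated and no control arrays (-3.32 ± 0.63, adjusted p = 0.0899); whether the probe also reads its paralog Hamp was not tested. Id3 rose by 0.68 in WT muscle and was not called in KO muscle (-0.33; difference -1.01 ± 0.26), and Smad6, an inhibitory Smad, fell by 0.62 and 1.32 (difference -0.70 ± 0.23). The list of BMP and GDF ligands, receptors and antagonists had 1 of 31 lower, none higher and a median of 0.037 (-0.046 to 0.15 over the alternatives). Of 25 TGF-beta genes 3 were lower (Tgfb1, Timp1 and Acta2) and none higher, with a median of -0.011 (-0.14 to 0.16 over the alternatives).

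Heat shock and chaperone genes were lower in 10 of 25 members and higher in none, with a median of -0.42 (-0.56 to -0.25 over the alternatives, -0.25 with the scan day and -0.27 with normexp). In WT muscle 11 of them rose and 2 fell; in KO muscle 7 rose and 6 fell. Of all genes 18.7% and 20.6% rose and fell in WT and 23.7% and 23.2% in KO muscle. 7 chaperone genes were called lower in denervated KO than WT muscle. Hspa1a, the inducible Hsp70, read 1.87, 1.90 and 1.88 in WT control, 3.50, 3.46 and 2.35 in WT denervated, 2.16, 1.96 and 2.08 in KO control and 1.85, 1.22 and 1.02 in KO denervated muscle. Its WT response was 1.22, its KO response -0.70 and the difference -1.92 ± 0.41 (limma adjusted p = 0.128). The small heat shock proteins Hspb1, Hspb7 and Cryab, which guard the sarcomere, rose by 1.52, 1.78 and 0.73 in WT muscle and were not called in KO muscle (0.095, -0.077 and -0.35). Their differences were -1.43 ± 0.32, -1.86 ± 0.44 and -1.07 ± 0.26 (adjusted p = 0.14, 0.152 and 0.168).

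Embryonic sarcomere and cytoskeleton genes were lower in 7 of 21 members and higher in none, with a median of -0.54 and -0.38 under quantile normalization. The titin-associated repeat proteins Ankrd1 and Ankrd2 differed by -1.43 ± 0.44 and -1.66 ± 0.49, the filamin Flnc by -0.71 ± 0.22 and the Z-disc protein Csrp3 by -0.91 ± 0.25, with adjusted p from 0.22 to 0.298. Xirp1, an actin-binding repeat protein, rose by 1.07 in WT and fell by 0.86 in KO muscle, both called, without a called difference (-1.93 ± 0.44, limma adjusted p = 0.14). Synapse genes were lower in 6 of 23 members (Chrnd, Musk, Lrp4, Etv4, Scn4a and Ncam1) and higher in 1 (Erbb3), with a median of -0.46 (-0.52 to -0.20 over the alternatives, -0.20 without KO control 3 and -0.26 with normexp). Lrp4, the agrin receptor, rose by 1.99 in WT and 0.93 in KO muscle (-1.06 ± 0.35, adjusted p = 0.363), and Etv4, a transcription factor of synaptic genes, was called in KO but not in WT muscle (-1.20, against 0.11 in WT muscle; difference -1.31 ± 0.28, adjusted p = 0.13).

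Metabolic and contractile lists had negative medians whose size depended on the scaling. Enzymes of the citric acid cycle and of fatty acid oxidation were lower in 10 of 40 members and higher in none. 35 fell in WT and 38 in KO muscle, beside 20.6% and 23.2% of all genes, with a median difference of -0.43 and -0.30 under quantile normalization. Fabp3, a fatty acid carrier, and Oxct1, an enzyme of ketone use, fell by 1.09 and 1.04 in WT and by 2.34 and 2.11 in KO muscle (differences -1.25 ± 0.30 and -1.08 ± 0.24, limma adjusted p = 0.159 and 0.134). Respiratory complex I had 34 of 37 values below 0 and complexes II to V 38 of 41, with medians of -0.27 and -0.31 that were -0.066 and -0.066 under quantile normalization. Fast-fibre genes had 17 of 17 values below 0 and a median of -0.50, slow-fibre genes -0.35 and glycolysis genes -0.37; under quantile normalization these were -0.017, -0.077 and -0.058. Quantile normalization moved the median of all genes from 0.014 to 0.043.

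On the higher side, growth arrest and p53 response genes had 5 of 22 members at an unadjusted p under 0.05 (Cdkn1c, Gadd45b, Mdm2, Sesn3 and Bax) and 1 lower (Eda2r), with a median of 0.11 (0.043 to 0.27 over the alternatives). Mdm2, the ligase of p53, rose by 0.85 in WT and 1.74 in KO muscle (0.89 ± 0.23, limma adjusted p = 0.19), while Cdkn1a, the relative of Cdkn1c known as p21, rose by 5.05 and 4.79 (-0.26 ± 0.42). Of 25 integrated stress response genes, the secreted stress hormones Fgf21 and Gdf15 were higher and Atf3 lower at an unadjusted p under 0.05, and the median was 0.019 (-0.052 to 0.13 over the alternatives). Gdf15 read -3.33, -3.74 and -3.79 in WT control, -2.05, -3.20 and -2.97 in WT denervated, -3.48, -3.63 and -2.64 in KO control and 0.13, 0.40 and -0.75 in KO denervated muscle. KO denervated arrays lay above all others, and the difference was 2.29 ± 0.53 (adjusted p = 0.149). Fgf21, well above background on the 6 denervated arrays alone, had a fitted difference of 2.65 ± 0.62 (adjusted p = 0.151), and both were called higher in denervated KO than WT muscle, by 2.66 and 2.87. Aldh3a1, a detoxifying aldehyde dehydrogenase likewise read in denervated muscle alone, stood at -0.45 to 0.057 in WT and 2.54 to 3.56 in KO denervated muscle (2.58 ± 0.62, adjusted p = 0.158).

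No gene of the 11 marker lists of other cell types was called for the difference, beside 0.184% of all genes. At an unadjusted p under 0.05 the members that passed were Itgam, Mbp, Erbb3 and Krt10 on the higher side and Lgals3, Acta2 and Cxcr4 on the lower side. Macrophage genes had 15 of 18 values above 0 and a median of 0.29 (0.0024 to 0.65 over the alternatives, 0.0024 without KO control 3 and 0.65 with the slide as a block). Their summed linear level, in units of the array's 75th percentile, was 38 to 56.3 in WT control, 72.2 to 89.2 in WT denervated, 32 to 73 in KO control and 71.9 to 97.9 in KO denervated muscle. Erythrocyte genes had 0 of 6 values above 0 and a median of -0.69, -0.17 with the slide as a block, with summed levels of 94.6 to 238 in WT control, 50.8 to 119 in WT denervated, 87.9 to 187 in KO control and 23.9 to 56.9 in KO denervated muscle. The summed levels of 5 of the 11 lists did not overlap between the denervated groups, and all 5 overlapped between the control groups. Parting was not particular to marker lists. Denervated sums also parted for heat shock and chaperone genes (983 to 1189 in WT, 753 to 793 in KO). They overlapped for proteasome subunits (1295 to 1542 in WT, 1161 to 1564 in KO). Such linear sums are weighted to the brightest members, and how often sums of other genes part in this way was not counted. Smooth muscle and pericyte genes summed to 181 to 216 in WT and 120 to 147 in KO denervated muscle, although their median difference was 0.42 (0.016 without KO denervated 2), and satellite cell genes to 17.7 to 20.5 in WT and 12.2 to 16.6 in KO denervated muscle, with a median of -0.069. Fibroblast genes summed to 208 to 242 in WT and 253 to 345 in KO denervated muscle, with 11 of 13 values above 0 and a median of 0.11 (0.048 to 0.37 over the alternatives). In control muscle they summed to 251 to 261 in WT and 220 to 379 in KO, so the KO control and KO denervated ranges overlapped. Schwann cell genes summed to 9.22 to 11.2 in WT and 12.2 to 13.2 in KO denervated muscle, with a median of 0.34 (0.16 without KO control 1 and 0.072 with the slide as a block), and the 3 skin and hair genes to 0.879 to 1.08 in WT and 1.27 to 1.32 in KO denervated muscle. For the other 6 lists the denervated groups overlapped, and the part of other cell types in the 28 differences was not tested.

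**Figure D5:**
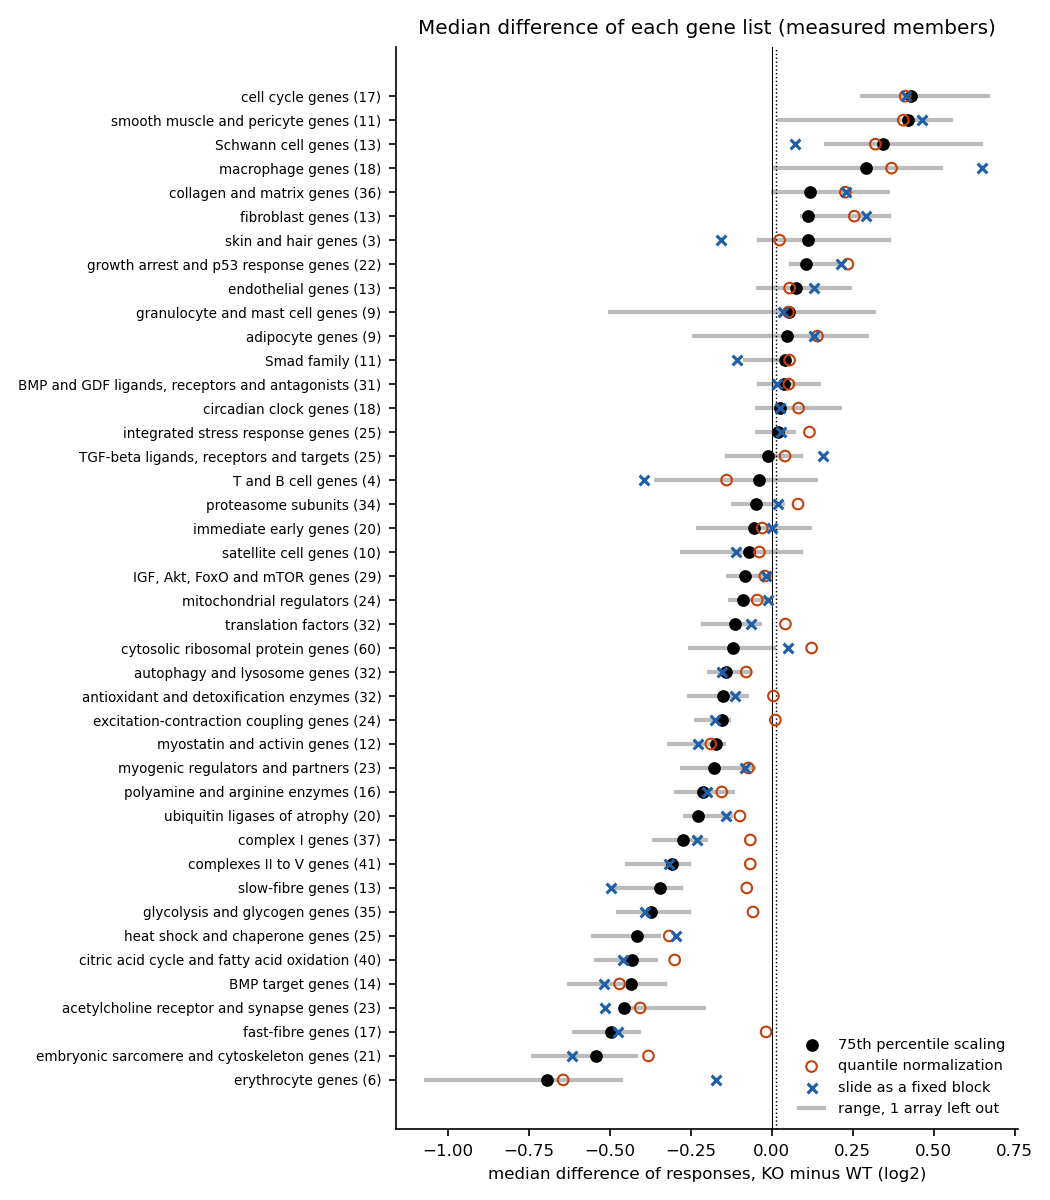
Median difference of responses (x axis, log2, KO minus WT) over the measured members of 42 gene lists, with the number of members in parentheses. Filled points use 75th percentile scaling, open points quantile normalization, crosses the slide as a fixed block, grey lines the range with 1 array left out, and the dotted line the median of all genes; under quantile normalization fast-fibre genes move from -0.50 to -0.017 and BMP targets from -0.43 to -0.47.

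A further 36 genes had a limma adjusted p between 0.05 and 0.1; those named here were chosen after their values were seen. Chrna9, an acetylcholine receptor subunit, had responses of 3.00 in WT and -0.029 in KO muscle, with KO control 1.59 above WT control muscle, and a difference of -3.03 ± 0.61. The potassium channel genes Kcnc1 and Kcnf1 differed by -2.21 ± 0.44 and -4.52 ± 0.86, with Kcnf1 not well above background in KO denervated muscle. Thbs4 and Tnmd, genes of tendon and matrix, had differences of 1.13 ± 0.20 and 1.34 ± 0.27, with KO minus WT at -0.73 and -1.46 in control and at 0.40 and -0.11 in denervated muscle. Wnt9a, a Wnt ligand, had a difference of 0.99 ± 0.20 and Mdm4, the partner of Mdm2, one of 1.76 ± 0.35. The Wnt signalling genes Lgr5, well above background on no control array, and Fzd3, on KO denervated arrays alone, are in this range with levels that are bounds.

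Slides and scan days limit how firmly these differences can be read. The slide with WT denervated 2 and 3, KO control 1 and KO denervated 2 was scanned on another day than the other slides. That day held no WT control array, so scan day and group overlap in part. The scan day as a fixed block gave 26 calls, 17 of them among the 28. WT control and denervated arrays met on 1 slide and KO control and denervated arrays on 2 others, and no slide held both pairs. Taken within those slides, the KO response minus the WT response had the sign of the overall difference in 28 of 28 genes, and so did denervated KO minus denervated WT on each of the 2 slides that held both. The 28 were chosen by a test on these same arrays, so signs and unadjusted p-values kept here are no separate evidence. The rate over all genes was not counted, and the part of the slides in the differences was not tested. For Npr3 the within-slide responses were 2.81 in WT and -1.34 and -0.91 in KO muscle, and for Cdkn1c 0.61, 2.77 and 3.82. With the slide as a fixed block all 28 kept an unadjusted p under 0.05, and TC1660846, Rassf10, Adora2b and Vgll2 were called (limma adjusted p = 0.00993, 0.0499, 0.0499 and 0.0499). TC1660846 and Rassf10 were well above background on KO denervated arrays alone, so their calls rest on levels that are bounds. With normexp correction all 28 kept their sign and 12 an unadjusted p under 0.05, with a smallest limma adjusted p of 0.248. The loss of calls was not limited to dim genes. Vgll2 and Ifitm7, well above background on all 12 arrays, had differences of -1.83 and 1.75 there (limma adjusted p = 0.952 and 0.552).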

How the data were processed

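Each of 12 one-colour arrays gave deposited intensities. Per the file headers the authors' processed signal is background-subtracted and detrended by Agilent Feature Extraction without scaling between arrays. The headers name version 10.7.3.1 of that software and the submitters' processing notes version 10.5.1.1. The authors' value table, also deposited as intensities on a linear scale, has nearly equal quartiles in every array; how it was normalized is not given in the sources used here, and it served as an alternative. Replicates are the samples of a group as the labels number them.

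The log2 processed signal minus the array's 75th percentile was fitted with limma 3.58.1 (R 4.3.3; lmFit, eBayes) over all 12 arrays as 4 group means. Spots of a probe were averaged, and a gene took its brightest kept probe. Probes well above background on all 3 arrays of at least 1 group were kept, and control spots and outlier flags were left out. Benjamini-Hochberg adjustment ran over all 15234 genes, and a call is an adjusted p under 0.05. Probes were named through accessions or symbols of a RefSeq table, or else by the file's own name, and carry the files' mm8 positions.

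Genes were named as the largest called differences each way and of each class, as bounds, as 18 chosen genes and as members of 42 lists; called genes outside that rule were named after their values were seen. The members and lists were chosen with earlier results of these data known. Alternatives were quantile, array-median and normexp scaling (offset 50), other filters, the authors' values, blocks for slide, scan day and replicate number, a trended variance and leaving out each array. The fit was checked on simulated data. The number of arrays limits the precision.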

Additional observations from a re-analysis of the deposited data

Results flagged for a closer look

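The denervation response differed between WT and KO muscle for 28 genes by the limma test of the difference itself (adjusted p under 0.05). Given here are the difference on the log2 scale (KO minus WT) and, after it, in how many of the alternative settings the gene was still called. The responses lost in KO muscle were those of Ankrd55 (-4.837, 21 of 24), Rasl11a (-2.657, 11 of 24) and 4930558C23Rik (-2.361, 15 of 24). The blunted ones were Slc2a5 (-3.091, 9 of 24), Adra1b (-3.004, 21 of 24), Plekhh2 (-2.808, 15 of 24), NAP022485-001 (-1.847, 6 of 24) and Myl12a (-1.185, 9 of 25). Reversed from a rise to a fall were Npr3 (-3.87, 23 of 25), Rgcc (-2.551, 22 of 25), Tspan9 (-1.459, 11 of 25) and Sh3bp4 (-1.415, 10 of 25), and from a fall to a rise Stmn1 (1.696, 7 of 25) and Dkk3 (1.947, 12 of 25). A larger fall was seen in Vgll2 (-1.987, 8 of 25).

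The larger rises in KO muscle were those of Ifitm7 (1.716, 9 of 25), Btla (2.27, 11 of 24), Adgrf4 (2.865, 10 of 24) and Rassf10 (2.907, 12 of 24). The gained ones were A430090L17Rik (1.499, 8 of 24), Sv2b (2.287, 5 of 24), Hjurp (2.451, 7 of 25), Adora2b (2.514, 21 of 25), Pinlyp (2.655, 5 of 24), Cdkn1c (2.682, 13 of 25), TC1660846 (3.154, 23 of 24), AK161134 (3.342, 5 of 24) and BC034090 (4.365, 5 of 24). All 28 kept the direction of the difference in every setting that tested them. Npr3 and TC1660846 were called in the most settings, and Sv2b, Pinlyp, AK161134 and BC034090 in the fewest. TC1660846 was well above background on KO denervated arrays alone, so its calls rest on levels that are bounds. Groups of 3 arrays are too small for a test of single arrays that stand apart.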

How the results depend on the processing

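The direction of the 28 differences held in every alternative, but their number moved. Against 28 calls, 15 higher and 13 lower, normexp background correction gave limma 0 calls in either direction (289 genes at an unadjusted p under 0.05), no filter 5 (1 and 4), only genes well above background on all arrays 12 (6 and 6) and the slide as a fixed block 4 (3 and 1). Quantile normalization gave 42, 25 of them higher, and kept 26 of the 28. With 1 array left out the count ran over 5 to 51 (1 to 20 higher, 4 to 31 lower). With 1 array left out the counts of other comparisons ran over 4813 to 6119 for the WT response, 6101 to 7223 for the KO response, 151 to 320 between denervated and 0 to 2 between control muscles, and were 1909, 2720, 25 and 0 with normexp. Without a filter 10108 genes were called for the KO response and 203 between denervated muscles.

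Between control muscles 5 genes were called under quantile and under array-median scaling, 4 with the authors' values or the mean of probes, 2 with all-array genes, the random slide block, the scan day or an intensity trend, and 0 without a filter, with the fixed slide block or with the replicate block over all arrays. In the order lost, gained, blunted, enhanced and reversed, the classes held 3, 9, 5, 5 and 6 genes; they held 1, 1, 1, 0 and 2 without a filter, 0, 3, 0, 1 and 0 with the fixed slide block, and 0 each with normexp. With all-array genes, lost, gained, blunted and enhanced held 0, 2, 1 and 3. Blunted and enhanced held 9 and 10 under quantile normalization, blunted held 9 with the authors' values, enhanced 8 with the trend, and gained 4 with the mean of probes. With 1 array left out they ran over 1 to 8, 1 to 9, 1 to 7, 0 to 18 and 1 to 9.

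Same-numbered control and denervated arrays deviated from their group means with correlations of 0.304, 0.107 and 0.232 in WT and 0.0899, 0.0152 and 0.175 in KO muscle. With 2 of 3 KO pairs under 0.1, the numbers were not taken to pair the samples in the main fit. Each WT control array correlated best with the denervated array of its number, and not each KO array. These values do not settle whether the samples are paired. With the replicate block by genotype 9 genes were called (3 higher, 6 lower; gained 4, blunted 0, enhanced 1, reversed 1), of which 5 are among the 28 (Npr3, 4930558C23Rik, Adora2b, Rassf10 and TC1660846), and with the replicate block over all arrays 21 (6 higher; gained 5, enhanced 3), 15 of them among the 28.

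Differences of uncalled genes changed sign. Fbxo32 was 0.68 with the fixed slide block, 0.034 with the random one and 0.61 with the scan day. Chrna1 was 0.098 under quantile normalization, 0.13 with the authors' values and 0.046 with the mean of probes. Under array-median scaling Smad4 was -0.022, Gdf6 -0.028 and Trim63 -0.030, and Smad4 was -0.050 with the mean of probes. With normexp Gdf5 was 0.35 and Hdac4 0.047. With 1 array left out the ranges were -0.80 to 0.18 for Fbxo32, -0.42 to 0.16 for Gdf5, -0.43 to 0.54 for Gdf6, -1.10 to 0.27 for Myh3, -0.78 to 0.22 for Nog, -0.075 to 0.14 for Smad4 and -0.18 to 0.19 for Trim63. The causes were not tested. Genes not well above background have levels that are bounds, which limits the 16 called genes of that kind.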

Other observations

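Enzymes of polyamine and arginine metabolism moved both ways, with 2 of 16 higher and 3 lower at an unadjusted p under 0.05 and none called by limma. Spermine synthase (Sms) rose by 1.24 in WT muscle and was not called in KO muscle (0.17; difference -1.07 ± 0.28, adjusted p = 0.193), and argininosuccinate synthase (Ass1) rose by 4.01 in WT and 2.33 in KO muscle (difference -1.68 ± 0.49, adjusted p = 0.264). Of the antioxidant and detoxification enzymes, 2 of 32 were higher and 5 lower at that level. Catalase (Cat) rose by 0.83 in WT muscle and stood at -0.00096 in KO muscle (difference -0.83 ± 0.20, adjusted p = 0.174). Igfbp2, a binding protein of insulin-like growth factors, rose by 3.90 in WT and 6.85 in KO muscle (difference 2.96 ± 0.82, adjusted p = 0.224), with some control arrays not well above background.

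Of 34 proteasome subunits 23 rose in WT and 21 in KO muscle, beside 18.7% and 23.7% of all genes, with a median difference of -0.048, 0.081 under quantile normalization. For autophagy and lysosome genes the median was -0.14 (-0.21 to -0.062 over the alternatives) and for cytosolic ribosomal proteins -0.12, the latter 0.12 under quantile normalization, and limma called none of them (0 at an unadjusted p under 0.05). Lmcd1 and Sncg, chosen after their values were seen, had opposite responses without a called difference: 0.85 in WT and -0.94 in KO muscle for Lmcd1, and -1.31 and 1.01 for Sncg.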
